A study of Rattus norvegicus with 16 samples.

Results

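Potassium channel genes were followed in the hippocampus of rats after chronic mild stress. They were taken as all probes whose RefSeq target has a gene symbol that starts with Kcn, with Kcnj13 left out. Of 88 such probes for 82 genes, the brightest of each gene was used, and 67 genes were kept because the probe was well above background on at least 4 of 16 arrays. These 67 genes stand among 13903 symbols that could be matched on the array. The lowest gene inside this limit was Kcnh8, well above background on 4 arrays, followed by Kcnh5 on 5, and the highest outside it was Kcnk18 on 2. Of the 15 genes not kept, 9 were well above background on 0 arrays, among them Kcnj10 and Kcnj2, and 6 on 1 or 2 arrays, among them Kcna2. A total of 58 genes passed on all 16 arrays.

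The groups, with 4 arrays each, were male Sprague-Dawley rats of 250 g that had lived through 8 weeks of unpredictable small stressors, the chronic mild stress (CMS) schedule, and were labelled depression-susceptible, anxiety-susceptible or insusceptible, and unstressed controls. All carried the same strain background and no genetic change is named. The sources used here give neither the animals' age, nor how stressed rats were sorted, nor how many animals stand behind 4 arrays.

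Potassium channels let potassium leave or enter the cell and so set the resting potential, end the action potential and tune how often a neuron fires. Voltage-gated (Kv) channels open on depolarisation, and their pore subunits pair with electrically silent subunits and with accessory proteins. Inward rectifiers and two-pore-domain channels set the resting potential, and calcium- or sodium-activated channels shape the pause after a spike. In the hippocampus these classes differ between cell bodies, dendrites and axons of pyramidal and granule neurons.

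Levels are given as log2 of the processed signal minus the log2 of the 75th percentile of that array, so that 0 is the 75th percentile of its spots. Levels of different probes are not compared. The 75th percentile itself was 2997 to 3382 on the arrays of scan day 1 and 1077 to 1248 on those of day 2. Slides 1 and 2, scanned on day 1, each held 2 depression-susceptible and 2 control arrays. On day 2, slide 3 carried anxiety-susceptible arrays alone and slide 4 insusceptible arrays alone. For these 2 groups, slide, day and group cannot be told apart. On slides 1 and 2, position on the slide followed the group. Arrays of 1 group on 1 slide differed by a median of 0.0825 (log2, same spot), against 0.116 between repeated spots of a probe within an array, so such arrays were averaged and errors rest on 6 samples: 2 depression-susceptible, 1 anxiety-susceptible, 1 insusceptible and 2 control. Standard errors (SE) and adjusted p are those of limma on these 6 samples, with Benjamini-Hochberg adjustment over all probes tested. The single samples are assumed to vary like the other groups. Rose, fell and called are used where the adjusted p was under 0.05 both there and in a fit of all 16 arrays. These p-values measure the spread between slides, not between animals.

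In depression-susceptible rats 4 genes rose and 4 fell, 11.9% of the 67, where 9.84% of all probes tested were called (6.73% higher and 3.11% lower). Kcnk16, Kcne5, Kcnq3 and Kcnv2 rose, and Kcnq1, Kcne2, Kcnmb1 and Kcns1 fell. In anxiety-susceptible rats 6 genes rose and 14 fell, 29.9% of the 67, where 29.9% of all probes were called (13.4% higher and 16.5% lower). In insusceptible rats 8 rose and 11 fell, 28.4% of the 67, where 30.1% of all probes were called (15.9% higher and 14.2% lower). The shares are near those of all probes. With the 75th percentile taken over probes in place of spots, the anxiety-susceptible split was 9 higher and 13 lower. The median difference over the 67 genes was -0.03 for the depression-susceptible group, 0.02 for the anxiety-susceptible group and -0.0022 for the insusceptible group, beside -0.04, -0.05 and 0.01 over all probes. All 3 comparisons use the same control arrays. With normexp background correction, 0 probes of the whole array passed limma over 6 samples in any of them, and 3, 5 and 4 potassium channel genes had an unadjusted p under 0.05 in depression-susceptible, anxiety-susceptible and insusceptible rats. Leaving out 1 of the depression-susceptible or control slide samples left 2 calls in depression-susceptible, 4 to 10 in anxiety-susceptible and 3 to 7 in insusceptible rats. Depression-susceptible and control arrays shared slides 1 and 2. With slide as a block over the 6 samples 33 of the 67 were called in depression-susceptible rats, where 38.4% of all probes were. These were the 8 above and 25 others, which count below as not called there. Among genes not called, quantile normalization turned the sign of 7 of 59 (depression-susceptible), 14 of 47 (anxiety-susceptible) and 12 of 48 (insusceptible). In the same order, 3, 7 and 7 of them were called under it. The same shares over all probes are not given. Of 7 red blood cell markers kept, 5 rose and 1 fell in depression-susceptible rats, 0 rose and 2 fell in anxiety-susceptible rats and 4 rose and 1 fell in insusceptible rats. Their summed signal, in multiples of the 75th percentile, was 25.5 and 24.8 in the depression-susceptible samples, 0.982 in the anxiety-susceptible sample, 2.58 in the insusceptible sample and 1.37 and 1.40 in the control samples. Their part in the results was not tested.

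**Figure D1:**
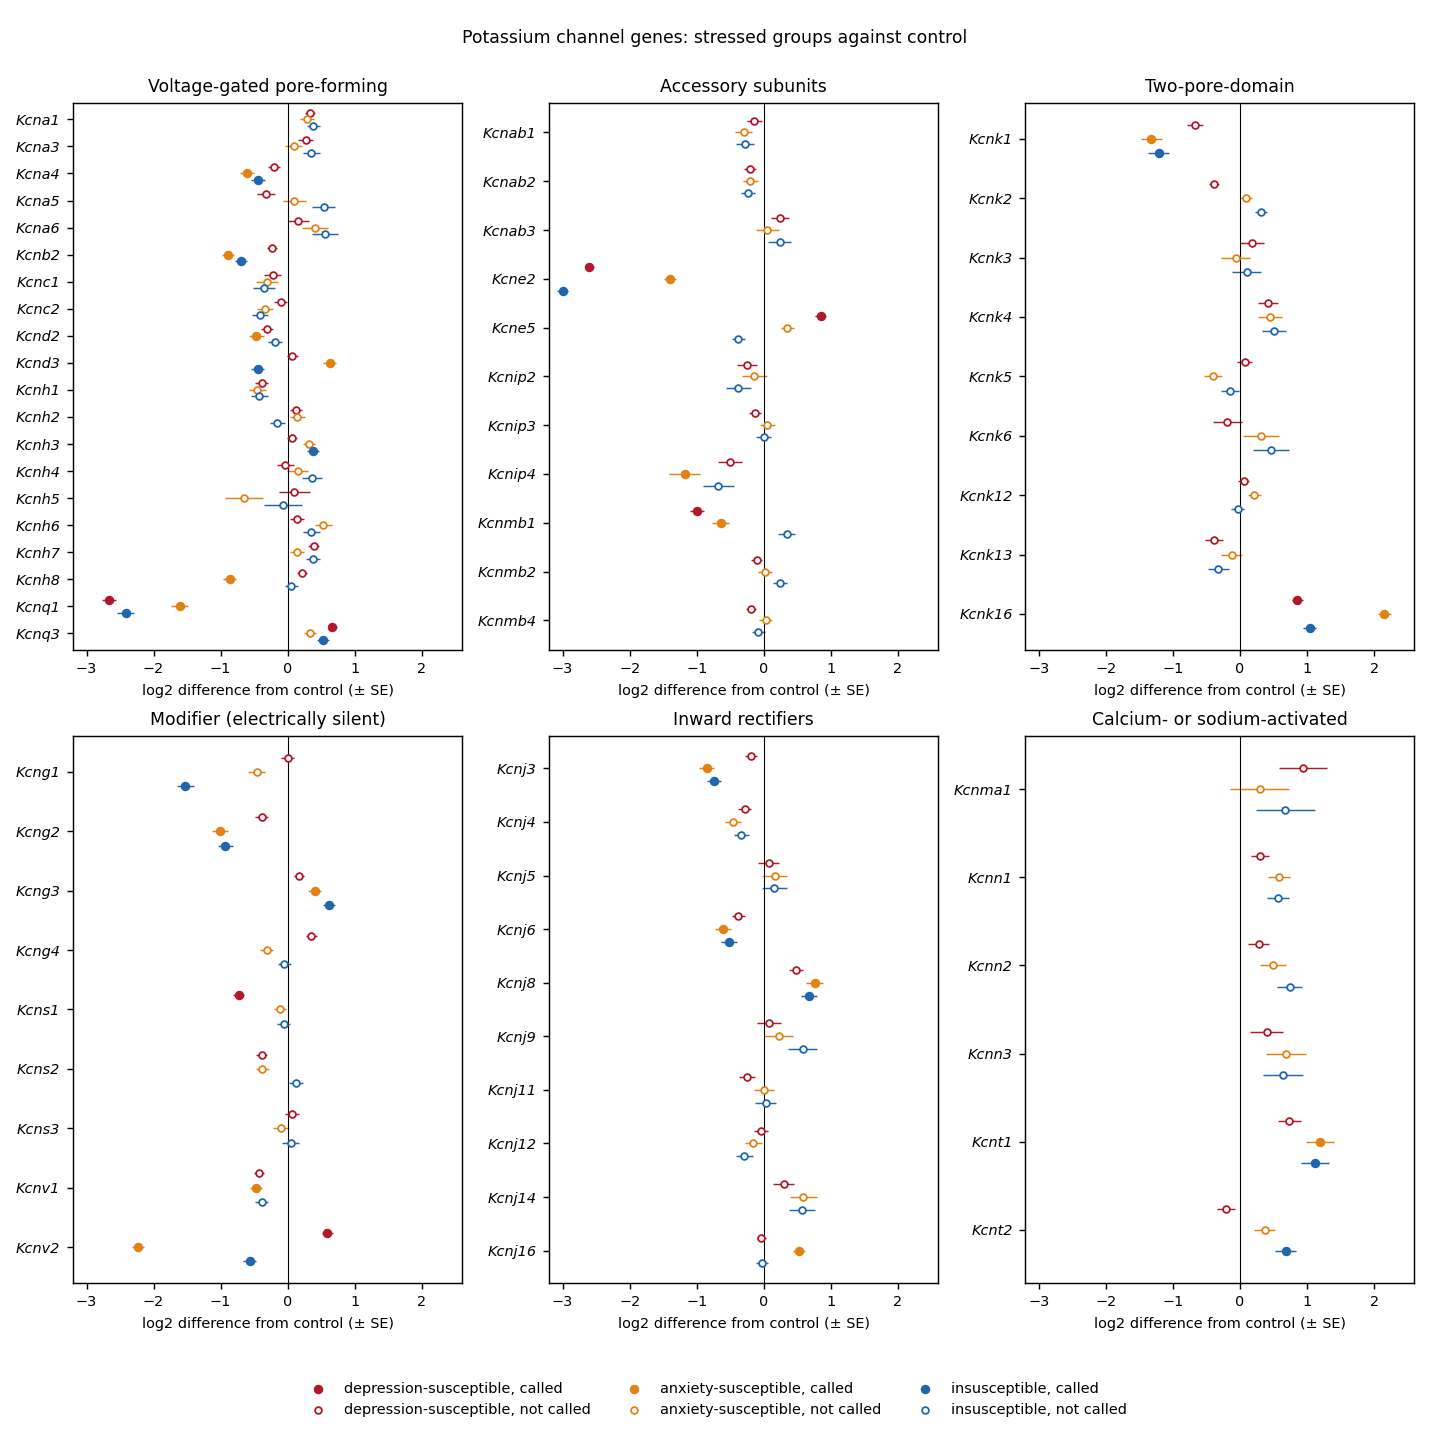
Log2 difference from control (x axis) of the potassium channel genes, with 2 of the 67 not drawn, by channel class, for the depression-susceptible, anxiety-susceptible and insusceptible groups. Points are group differences, bars are ± 1 SE from the 6-sample fit, and filled points are called; Kcne2, Kcnq1 and Kcnv2 lie farthest below 0 and Kcnk16 farthest above it. Probes not well above background are drawn at their measured difference.

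Among the 22 voltage-gated pore genes, Kcnq1 had the largest differences. Kcnq1 codes for a slowly opening channel of epithelia and heart. Its level was -5.82, -5.94, -5.90 and -5.84 on the depression-susceptible arrays, -4.61, -5.02, -4.75 and -4.92 on the anxiety-susceptible arrays, -4.98, -6.24, -5.94 and -5.35 on the insusceptible arrays and -3.16, -3.06, -3.32 and -3.33 on the control arrays. Every stressed array lay below every control array. It fell 6.32-fold in depression-susceptible rats (log2 difference -2.66 ± 0.10 SE, adjusted p = 0.00307), 3.05-fold in anxiety-susceptible rats (-1.61 ± 0.13 SE, adjusted p = 0.00925) and 5.32-fold in insusceptible rats (-2.41 ± 0.13 SE, adjusted p = 0.00611), where it was well above background on 2 of 4 arrays. With normexp the 3 differences were -2.18 (depression-susceptible), -0.995 (anxiety-susceptible) and -0.51 (insusceptible).

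Kcne2 codes for an accessory subunit that in mice joins Kcnq1 in the choroid plexus, the epithelium that makes cerebrospinal fluid. Its level was -1.17, -1.10, -1.16 and -1.09 on the depression-susceptible arrays, 0.11, 0.05, 0.08 and 0.05 on the anxiety-susceptible arrays, -1.59, -1.49, -1.53 and -1.505 on the insusceptible arrays and 1.48, 1.45, 1.47 and 1.48 on the control arrays. The 4 groups did not overlap, with insusceptible lowest and control highest. The difference from control was -2.60 ± 0.07 SE, adjusted p = 0.00223 for the depression-susceptible group, -1.40 ± 0.09 SE, adjusted p = 0.00684 for the anxiety-susceptible group and -3.001 ± 0.09 SE, adjusted p = 0.00464 for the insusceptible group, folds of 6.07, 2.64 and 8.01. Defining genes of the choroid plexus moved with both. Of 12 such genes kept, 12 fell in the depression-susceptible group, 11 in the anxiety-susceptible group and 12 in the insusceptible group, where 3.11%, 16.5% and 14.2% of all probes fell; the median differences were -3.71, -1.98 and -3.98, and Ttr, the transthyretin gene, was the exception in anxiety-susceptible rats, at 0.53. Their summed signal, in multiples of the 75th percentile, was 33.1 and 28.8 in the depression-susceptible samples, 128 in the anxiety-susceptible sample, 12.1 in the insusceptible sample and 121 and 108 in the control samples. Their part in the 2 results was not tested, and in whole tissue fewer cells of a type and less RNA per cell cannot be told apart.

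**Figure D2:**
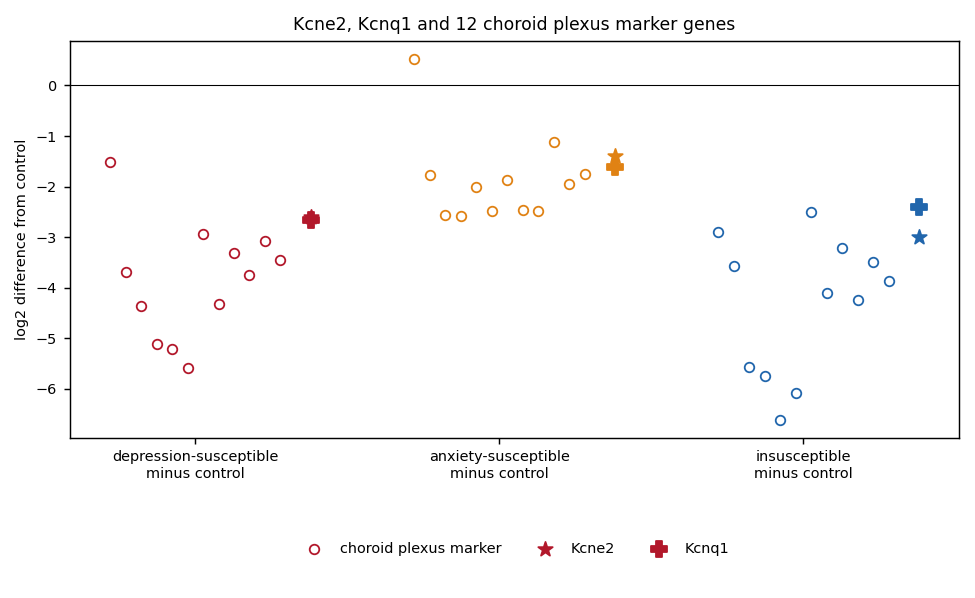
Log2 difference from control (y axis) of Kcne2, Kcnq1 and 12 choroid plexus marker genes in the 3 stressed groups; each open circle is a marker gene. All markers lie below 0 in the depression-susceptible and insusceptible groups, and 1 marker, Ttr, lies above it in the anxiety-susceptible group.

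Kcnq3, a subunit of the M channel that slow muscarinic inputs close, was higher on the stressed arrays. It read 1.30, 1.31, 1.15 and 1.58 on the depression-susceptible arrays, 1.01, 0.95, 0.99 and 1.05 on the anxiety-susceptible arrays, 1.25, 1.18, 1.13 and 1.23 on the insusceptible arrays and 0.67, 0.66, 0.73 and 0.62 on the control arrays. No stressed array overlapped the controls. It rose in depression-susceptible (0.67 ± 0.07 SE, adjusted p = 0.0191) and insusceptible rats (0.53 ± 0.09 SE, adjusted p = 0.027), while the anxiety-susceptible difference was 0.33 (adjusted p = 0.063).

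Kcnd3, which codes for Kv4.3, a pore of the fast A-type current, was called in opposite directions. It read 1.05, 1.05, 0.97 and 0.96 on the depression-susceptible arrays, 1.54, 1.57, 1.61 and 1.56 on the anxiety-susceptible arrays, 0.44, 0.44, 0.50 and 0.60 on the insusceptible arrays and 0.94, 0.88, 0.96 and 0.98 on the control arrays. Anxiety-susceptible arrays lay above all others and insusceptible arrays below all others. It rose in anxiety-susceptible (0.63 ± 0.10 SE, adjusted p = 0.0231) and fell in insusceptible rats (-0.44 ± 0.10 SE, adjusted p = 0.0414). The difference between those 2 groups was 1.07 ± 0.11 SE, adjusted p = 0.118, which did not pass. Kcnd2, for Kv4.2 of dendrites, fell in anxiety-susceptible rats (-0.47 ± 0.11 SE, adjusted p = 0.0443), a call lost under quantile normalization.

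Kcnb2, a delayed rectifier, read -2.90, -2.81, -2.90 and -2.84 on the depression-susceptible arrays, -3.59, -3.46, -3.46 and -3.54 on the anxiety-susceptible arrays, -3.39, -3.36, -3.31 and -3.24 on the insusceptible arrays and -2.61, -2.56, -2.70 and -2.63 on the control arrays. Anxiety-susceptible and insusceptible arrays lay below all others. It fell in anxiety-susceptible (-0.89 ± 0.09 SE, adjusted p = 0.0133) and in insusceptible rats (-0.70 ± 0.09 SE, adjusted p = 0.0182). Kcna4, the Kv1.4 pore of axons, fell in anxiety-susceptible (-0.61 ± 0.10 SE, adjusted p = 0.0265) and insusceptible rats (-0.44 ± 0.10 SE, adjusted p = 0.0473); the insusceptible call was lost under quantile normalization. Kcnh3, of the ether-a-go-go family, rose in insusceptible rats (0.38 ± 0.09 SE, adjusted p = 0.0494). Kcnh8 is counted among the anxiety-susceptible calls (adjusted p = 0.0146), but it was well above background on 0 of 4 arrays there and on 1 of 4 control arrays, and no fold is given. It passed the filter on dim probes only through depression-susceptible and control arrays, so this call is not independent of that filter.

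The Kv pore genes with no call from the list fixed for naming had these differences from control. Kcna1, the Kv1.1 pore of axons, differed by 0.33 (depression-susceptible), 0.29 (anxiety-susceptible) and 0.38 (insusceptible), and every stressed array lay above every control array. With slide as a block in limma Kcna1 was called in depression-susceptible rats (adjusted p = 0.034). Under quantile normalization it was called higher in each stressed group, and with normexp in none. Kcnc1 and Kcnc2, pores of fast-spiking interneurons, differed by -0.23 (depression-susceptible), -0.31 (anxiety-susceptible) and -0.35 (insusceptible) and by -0.10 (depression-susceptible), -0.34 (anxiety-susceptible) and -0.41 (insusceptible). Under quantile normalization the Kcnc1 differences were -0.00077 (depression-susceptible), 0.12 (anxiety-susceptible) and 0.07 (insusceptible). Those of Kcnc2 were 0.03, -0.08 and -0.16 in the same order. For Kcnh1, Kcnh2 and Kcnh7 the differences were -0.39 (depression-susceptible), -0.45 (anxiety-susceptible) and -0.42 (insusceptible), 0.12 (depression-susceptible), 0.14 (anxiety-susceptible) and -0.15 (insusceptible) and 0.39 (depression-susceptible), 0.14 (anxiety-susceptible) and 0.38 (insusceptible). Over all Kv pore genes without a call, differences ran from -0.39 to 0.39 in depression-susceptible, -0.65 to 0.53 in anxiety-susceptible and -0.42 to 0.56 in insusceptible rats.

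Silent subunits make no channel alone and alter the Kv2 pores they join. Among 9 such genes, Kcng2 read 2.33, 1.94, 2.18 and 2.18 on the depression-susceptible arrays, 1.51, 1.56, 1.55 and 1.53 on the anxiety-susceptible arrays, 1.64, 1.62, 1.62 and 1.59 on the insusceptible arrays and 2.52, 2.39, 2.61 and 2.65 on the control arrays. Anxiety-susceptible and insusceptible arrays lay below all others. It fell in anxiety-susceptible (-1.01 ± 0.12 SE, adjusted p = 0.0153) and insusceptible rats (-0.93 ± 0.12 SE, adjusted p = 0.0174). Under quantile normalization these differences of Kcng2 were -0.78 (anxiety-susceptible) and -0.71 (insusceptible). Kcng1 read -1.01, -1.06, -1.14 and -1.15 on the depression-susceptible arrays, -1.62, -1.49, -1.51 and -1.57 on the anxiety-susceptible arrays, -2.68, -2.59, -2.55 and -2.63 on the insusceptible arrays and -1.32, -1.02, -1.01 and -0.99 on the control arrays. It fell 2.88-fold in insusceptible rats (-1.53 ± 0.12 SE, adjusted p = 0.00995), and the insusceptible arrays lay below all others. Kcns1 fell in depression-susceptible rats (-0.73 ± 0.08 SE, adjusted p = 0.0181), with arrays at -3.27, -4.23, -3.60 and -3.80 against -3.21, -2.69, -2.94 and -3.14 in controls. Kcng3, a dim probe, rose in anxiety-susceptible (0.40 ± 0.09 SE, adjusted p = 0.0453) and insusceptible rats (0.62 ± 0.09 SE, adjusted p = 0.0219), and both calls were lost under quantile normalization. Kcnv1, chosen for naming after its values were seen, fell in anxiety-susceptible rats (-0.47 ± 0.10 SE, adjusted p = 0.0363). It differed by similar amounts without a call in depression-susceptible (-0.43) and insusceptible rats (-0.39), and every stressed array lay below every control array. With slide as a block in limma it was called in depression-susceptible rats (adjusted p = 0.0197), and under quantile normalization in each stressed group.

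Kcnv2, the silent subunit Kv8.2 known from photoreceptors, was well above background on 4 of 4 depression-susceptible, 0 of 4 anxiety-susceptible, 0 of 4 insusceptible and 4 of 4 control arrays. It was thus kept only through the groups where it was brightest, and its differences from the dim groups are not independent of the filter. It read -4.93, -4.74, -4.64 and -4.85 on the depression-susceptible arrays, -7.91, -6.97, -7.55 and -8.04 on the anxiety-susceptible arrays, -6.21, -6.09, -5.70 and -5.80 on the insusceptible arrays and -5.43, -5.34, -5.48 and -5.29 on the control arrays, and the groups did not overlap. With each dim signal raised to that of the array's faintest probe that stood well above background, it was at least 2.59-fold lower in anxiety-susceptible rats (adjusted p = 0.00632) and at least 1.29-fold lower in insusceptible rats (adjusted p = 0.0259). The adjusted p beside each bound in this paragraph belongs to the measured signals, and the bounds themselves were not tested. Kcnv2 rose in depression-susceptible rats (0.59 ± 0.08 SE, adjusted p = 0.027). That call was lost under quantile normalization, and under normexp the depression-susceptible difference was -0.55 and the insusceptible one 0.48. Depression-susceptible rats were at least 3.91-fold above anxiety-susceptible rats (adjusted p = 0.016), but under normexp this difference was -0.19, and the call was lost when any 1 of the 4 depression-susceptible or control slide samples was left out.

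**Figure D3:**
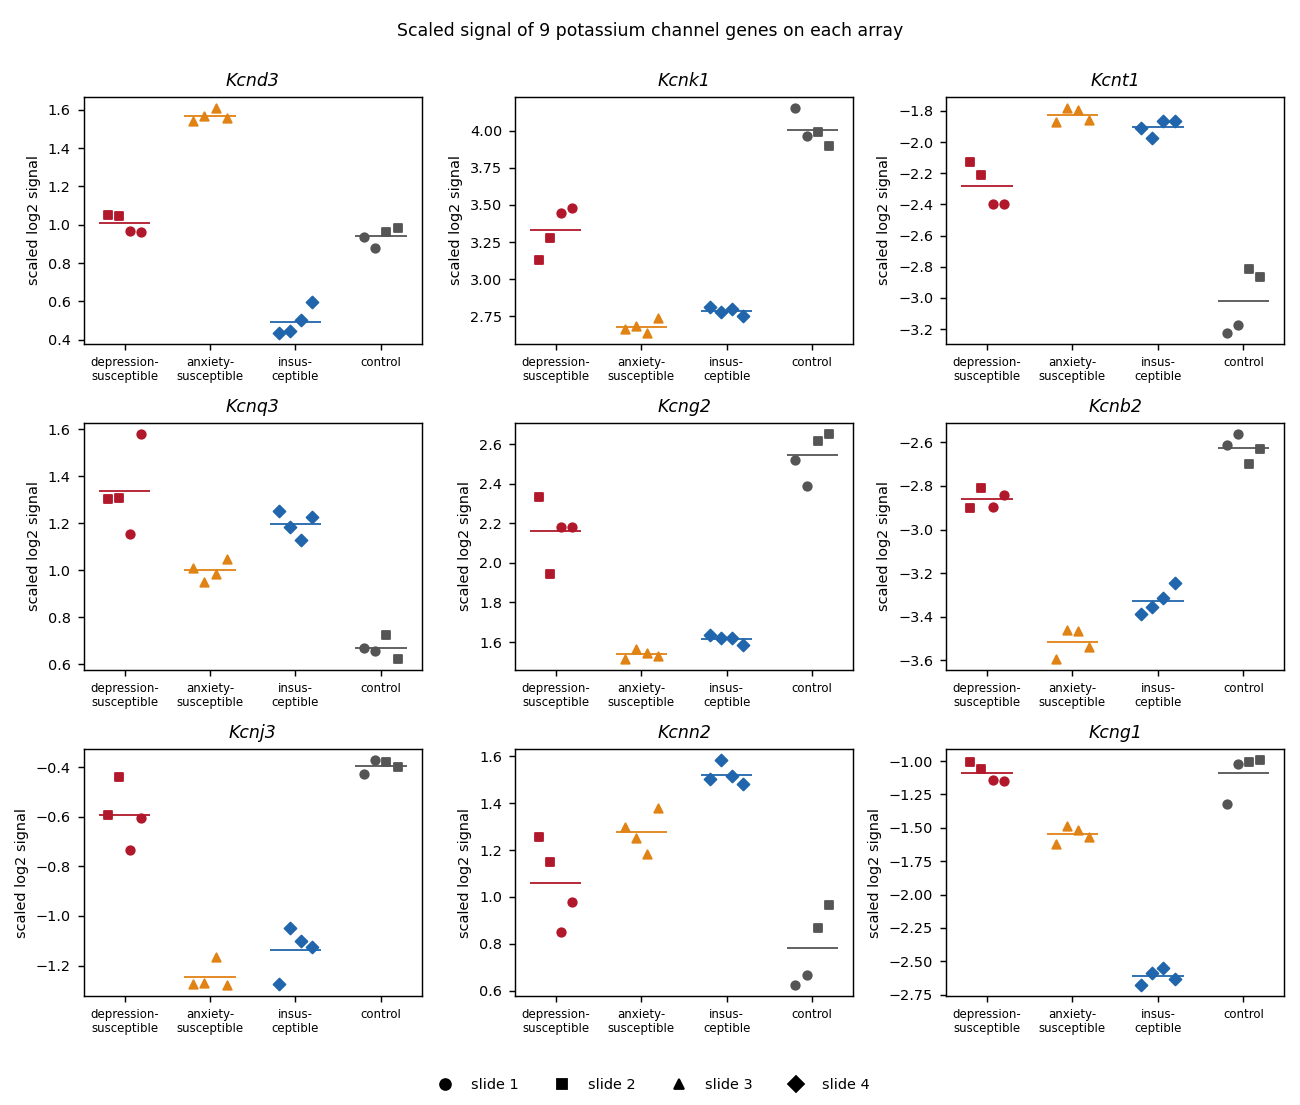
Scaled log2 signal (y axis) of 9 potassium channel genes on each of the 16 arrays, by group and by slide (symbol), with the group mean as a line. The anxiety-susceptible arrays of Kcnd3 sit above and the insusceptible arrays below all others, and for Kcnk1, Kcng2, Kcnb2 and Kcnj3 both groups sit below the controls.

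Accessory subunits change the gating or traffic of pores, and 11 were kept. Kcne5 rose in depression-susceptible rats (0.85 ± 0.08 SE, adjusted p = 0.014), with arrays at -3.69, -3.75, -3.90 and -3.76 against -4.68, -4.55, -4.54 and -4.72 in controls. The 2 groups did not overlap, but the difference was -0.0861 with normexp. Kcnip4, a calcium-binding partner of Kv4 pores, fell in anxiety-susceptible rats (-1.18 ± 0.23 SE, adjusted p = 0.0327), with arrays at -0.78, -0.74, -0.76 and -0.80 against 0.30, 0.22, 0.59 and 0.55 in controls. Its relatives Kcnip2 and Kcnip3 differed from control by -0.25 (depression-susceptible), -0.14 (anxiety-susceptible) and -0.38 (insusceptible) and by -0.13 (depression-susceptible), 0.05 (anxiety-susceptible) and -0.0022 (insusceptible). Under quantile normalization the Kcnip2 differences were 0.10 (depression-susceptible), 0.31 (anxiety-susceptible) and 0.09 (insusceptible). Those of Kcnip3 were -0.22, -0.19 and -0.28 in the same order. The Kv beta subunits Kcnab1 and Kcnab2 differed by -0.14 (depression-susceptible), -0.30 (anxiety-susceptible) and -0.28 (insusceptible) and by -0.20 (depression-susceptible), -0.20 (anxiety-susceptible) and -0.24 (insusceptible). Quantile normalization turned the Kcnab1 differences to 0.18 (depression-susceptible), 0.19 (anxiety-susceptible) and 0.21 (insusceptible). Those of Kcnab2 stayed below 0, at -0.21, -0.29 and -0.36 in the same order. Kcnmb1, a beta subunit of the BK channel of smooth muscle, was well above background on 2 of 4 depression-susceptible, 0 of 4 anxiety-susceptible, 1 of 4 insusceptible and 4 of 4 control arrays. It fell in depression-susceptible rats (-0.99 ± 0.10 SE, adjusted p = 0.0165), a difference that rests on signals near background, and was at least 1.32-fold lower in anxiety-susceptible rats (adjusted p = 0.0329). The adjusted p beside that bound belongs to the measured signals, and the bound was not tested. Kcnmb1 passed the filter on dim probes only with its control arrays counted. Its lower calls are therefore not independent of that filter and are no separate support. Kcnmb4, the neuronal BK beta subunit, differed by -0.20 (depression-susceptible), 0.03 (anxiety-susceptible) and -0.08 (insusceptible).

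Among 10 inward rectifiers, Kcnj3 and Kcnj6 code for Girk1 and Girk2, which G-protein-coupled receptors open. Kcnj3 read -0.59, -0.44, -0.73 and -0.61 on the depression-susceptible arrays, -1.27, -1.27, -1.17 and -1.28 on the anxiety-susceptible arrays, -1.28, -1.05, -1.10 and -1.12 on the insusceptible arrays and -0.43, -0.37, -0.38 and -0.40 on the control arrays. The anxiety-susceptible and insusceptible arrays lay below all others. It fell in anxiety-susceptible (-0.85 ± 0.11 SE, adjusted p = 0.0178) and insusceptible rats (-0.74 ± 0.11 SE, adjusted p = 0.0212). Kcnj6 fell in both as well (-0.61 ± 0.12 SE, adjusted p = 0.0356 and -0.52 ± 0.12 SE, adjusted p = 0.0479), and lost both calls under quantile normalization. Kcnj9, for Girk3, differed by 0.08 (depression-susceptible), 0.22 (anxiety-susceptible) and 0.58 (insusceptible), with no call.

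Kcnj8, the Kir6.1 pore of ATP-sensitive channels known from pericytes and smooth muscle, read -3.73, -4.08, -3.99 and -4.13 on the depression-susceptible arrays, -3.74, -3.73, -3.69 and -3.66 on the anxiety-susceptible arrays, -3.83, -3.79, -3.78 and -3.77 on the insusceptible arrays and -4.43, -4.63, -4.31 and -4.48 on the control arrays. It rose in anxiety-susceptible (0.76 ± 0.12 SE, adjusted p = 0.0252) and insusceptible rats (0.67 ± 0.12 SE, adjusted p = 0.0308), the insusceptible call being lost under quantile normalization. Of 8 endothelial and pericyte markers, 0 were called in anxiety-susceptible rats, with a median difference of 0.05, and 2 were called higher in insusceptible rats, with a median of 0.29; their part in this result was not tested. Kcnj16, a rectifier of glia, rose in anxiety-susceptible rats (0.53 ± 0.09 SE, adjusted p = 0.0255), a call lost under quantile normalization. Kcnj4 (Kir2.3) and Kcnj11 (Kir6.2, the neuronal ATP-sensitive pore) differed by -0.29 (depression-susceptible), -0.46 (anxiety-susceptible) and -0.34 (insusceptible) and by -0.25 (depression-susceptible), -0.0023 (anxiety-susceptible) and 0.02 (insusceptible).

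Two-pore-domain channels carry leak current, and 9 were kept. Kcnk1, for Twik1, read 3.13, 3.27, 3.44 and 3.48 on the depression-susceptible arrays, 2.66, 2.68, 2.64 and 2.74 on the anxiety-susceptible arrays, 2.81, 2.78, 2.80 and 2.76 on the insusceptible arrays and 4.15, 3.96, 3.99 and 3.90 on the control arrays. All stressed arrays lay below the controls. It fell 2.50-fold in anxiety-susceptible (-1.32 ± 0.15 SE, adjusted p = 0.0148) and 2.32-fold in insusceptible rats (-1.22 ± 0.15 SE, adjusted p = 0.017), and differed by -0.67 in depression-susceptible rats (adjusted p = 0.0544, or 0.013 with slide as a block, where it was called). Under quantile normalization these differences of Kcnk1 were smaller, at -0.88 (anxiety-susceptible), -0.75 (insusceptible) and -0.40 (depression-susceptible). Kcnk16, for Talk1 of the pancreas, read -4.16, -3.97, -4.003 and -4.08 on the depression-susceptible arrays, -2.68, -2.76, -2.80 and -2.80 on the anxiety-susceptible arrays, -3.92, -3.90, -3.88 and -3.78 on the insusceptible arrays and -4.88, -4.85, -5.03 and -4.87 on the control arrays. It rose in depression-susceptible (0.85 ± 0.08 SE, adjusted p = 0.0127), anxiety-susceptible (2.15 ± 0.10 SE, adjusted p = 0.00632) and insusceptible rats (1.04 ± 0.10 SE, adjusted p = 0.0115). With normexp the depression-susceptible difference was -0.21 and the anxiety-susceptible one 1.03. Kcnk2, for Trek1, and Kcnk3, for Task1, differed by -0.38 (depression-susceptible), 0.08 (anxiety-susceptible) and 0.31 (insusceptible) and by 0.18 (depression-susceptible), -0.06 (anxiety-susceptible) and 0.10 (insusceptible), with no call.

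Among 6 calcium- or sodium-activated channel genes, Kcnt1, the sodium-activated Slack channel, read -2.13, -2.21, -2.39 and -2.40 on the depression-susceptible arrays, -1.87, -1.78, -1.79 and -1.86 on the anxiety-susceptible arrays, -1.91, -1.98, -1.86 and -1.87 on the insusceptible arrays and -3.22, -3.17, -2.81 and -2.87 on the control arrays. Every stressed array lay above every control array. It rose in anxiety-susceptible (1.19 ± 0.20 SE, adjusted p = 0.0271) and insusceptible rats (1.12 ± 0.20 SE, adjusted p = 0.0304), and differed by 0.74 in depression-susceptible rats (adjusted p = 0.0781, or 0.011 with slide as a block, where it was called). Its relative Kcnt2 rose in insusceptible rats (0.68 ± 0.16 SE, adjusted p = 0.0467). The SK channel genes Kcnn1, Kcnn2 and Kcnn3, which make the pause after a spike, differed by 0.30 (depression-susceptible), 0.58 (anxiety-susceptible) and 0.57 (insusceptible), 0.28 (depression-susceptible), 0.50 (anxiety-susceptible) and 0.74 (insusceptible) and 0.40 (depression-susceptible), 0.69 (anxiety-susceptible) and 0.63 (insusceptible), with no call. With slide as a block in limma, all of these SK genes were called in depression-susceptible rats (adjusted p = 0.0273, 0.0303 and 0.0251). Kcnn2 was called in insusceptible rats under quantile normalization (0.82). In this class 5 of 6 genes were above control in the depression-susceptible group, 6 in the anxiety-susceptible group and 6 in the insusceptible group, and with normexp 2, 5 and 6. Of the 6, however, 0, 1 and 2 were called higher. In the same order, 12, 12 and 11 of 22 Kv pore genes and 4, 1 and 3 of 9 silent genes were above control. For accessory genes it was 2, 5 and 3 of 11, for inward rectifiers 4, 5 and 5 of 10, and for two-pore genes 5, 5 and 5 of 9. The share of all probes above control was not computed. Kcnma1, the BK pore, differed by 0.94 (depression-susceptible), 0.29 (anxiety-susceptible) and 0.67 (insusceptible), but its 2 control samples themselves lay at -4.16 and -5.11.

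The bases before the start of Kcnt1, Kcnt2 and Kcnd3 are shown because both Kcnt genes were called higher in insusceptible rats and Kcnd3 was called in 2 directions. They are 250 bases on the + strand of build GRCr8, from RefSeq, with capitals marking GC boxes (GGGCGG on either strand). Kcnt1 has 2 such windows, of which the first is given, at chr3:29081089-29081338, with Kcnt2 at chr13:54215057-54215306 and Kcnd3 at chr2:195626066-195626315.
Kcnt1: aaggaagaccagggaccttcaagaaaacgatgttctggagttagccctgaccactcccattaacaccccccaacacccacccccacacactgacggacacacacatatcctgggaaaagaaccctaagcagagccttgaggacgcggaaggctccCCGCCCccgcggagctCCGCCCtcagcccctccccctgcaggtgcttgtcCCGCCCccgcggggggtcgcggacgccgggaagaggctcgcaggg
Kcnt2: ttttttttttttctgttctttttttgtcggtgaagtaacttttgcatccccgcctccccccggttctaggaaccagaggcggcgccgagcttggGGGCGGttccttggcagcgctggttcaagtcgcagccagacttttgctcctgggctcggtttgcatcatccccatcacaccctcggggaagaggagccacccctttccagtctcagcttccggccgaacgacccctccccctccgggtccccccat
Kcnd3: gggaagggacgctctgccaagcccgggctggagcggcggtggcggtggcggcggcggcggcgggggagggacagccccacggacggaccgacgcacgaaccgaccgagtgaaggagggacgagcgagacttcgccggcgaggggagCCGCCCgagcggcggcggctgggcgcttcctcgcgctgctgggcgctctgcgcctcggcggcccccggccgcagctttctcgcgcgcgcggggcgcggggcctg
They hold 3, 1 and 1 GC boxes. Windows reaching 50 bases past the start were found for 46 of the 67 genes. Of their 50 windows 52% held a GC box, against 33.1% of 33469 windows of all genes. A cAMP response element (TGACGTCA) stood in 0 of the 50 and in 1.83% of all, both strands searched.

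In the depression-susceptible comparison each of slides 1 and 2 gives its own difference. The sign was the same on both slides for 63 of 67 genes, and for all 8 called genes. A call favours genes with close values on the 2 slides, so the 8 give no separate support. For 56 genes the 2 values lay within 0.2 of each other, and Kcnma1 had the widest gap, 1.23. The same counts over all probes were not made, so nothing particular to potassium channel genes is read from them.

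**Figure D4:**
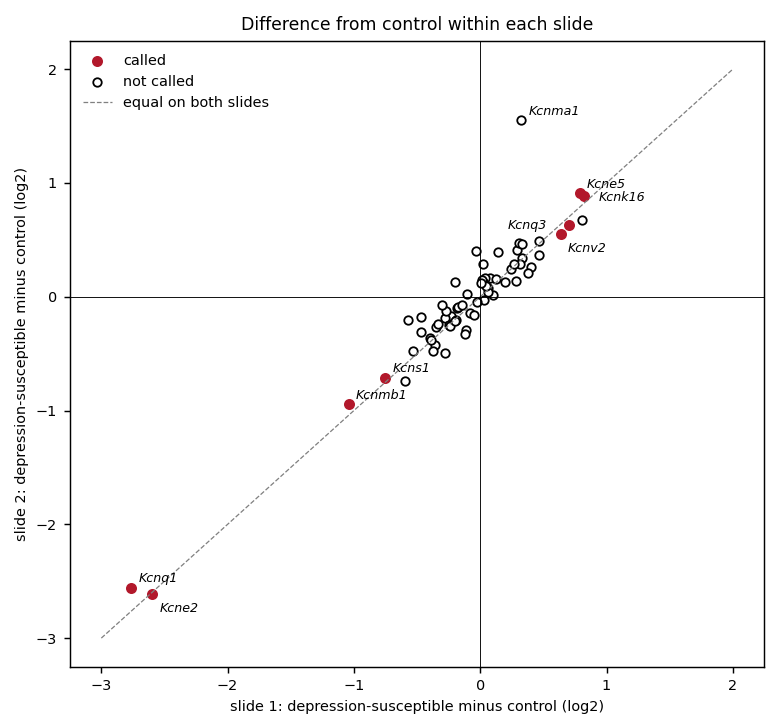
Depression-susceptible minus control (log2) on slide 1 (x axis) and slide 2 (y axis) for the 67 genes; filled points are called and the dashed line marks equal values. The 8 called genes lie close to the line, which a call favours, and Kcnma1 lies far above it.

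Between stressed groups, 0 of the 67 genes passed for depression-susceptible against insusceptible and 0 for anxiety-susceptible against insusceptible, where 0.0840% and 0.0783% of all probes were called. At an unadjusted p under 0.05 in limma over 6 samples there were 19 and 12, and over 16 arrays 39 and 29 passed adjustment. The shares of all probes at these settings are not given, and the 16-array fit takes arrays of 1 slide as separate samples. No result about potassium channel genes is read from these counts. For depression-susceptible against anxiety-susceptible, 1 gene passed, Kcnv2, where 0.230% of all probes were called. Tested for a difference anywhere among the groups, limma's F test called 21 of the 67, where 23.3% of all probes were called.

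Some genes had a second probe. The second probe of Kcnc2, for another transcript, fell in depression-susceptible (-0.55, adjusted p = 0.039), anxiety-susceptible (-1.09, adjusted p = 0.0119) and insusceptible rats (-0.78, adjusted p = 0.0183), while the brightest was not called. The second probe of Kcnk2 fell in anxiety-susceptible rats (-0.68, adjusted p = 0.0296), where the brightest was not called. Both probes of Kcng3 were called higher in anxiety-susceptible and insusceptible rats.

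Partners of the channels were followed as 2 lists. Of 22 kept partner subunits and scaffolds, 0 were called in depression-susceptible rats, 9 fell in anxiety-susceptible and 6 in insusceptible rats, with 0 higher, where 16.5% and 14.2% of all probes fell, and the medians were -0.22, -0.40 and -0.18. With slide as a block, 2 of the 22 rose and 9 fell in depression-susceptible rats, where 38.4% of all probes were called in either direction. Ank3, the ankyrin that holds channels at the axon start, differed by -0.93 in anxiety-susceptible and -0.51 in insusceptible rats, and Dlg4, the scaffold PSD-95, by -0.63 and -0.88; all 4 were called. The calmodulin gene Calm3 was called lower in both, and Calm2 was not called, at 0.50 and 0.35. Of 18 kept genes of the G-protein pathways that gate Girk and M channels, 0 were called in depression-susceptible rats, 5 fell in anxiety-susceptible and 4 in insusceptible rats, again where 16.5% and 14.2% of all probes fell, with medians of -0.23, -0.38 and -0.29. With slide as a block, 0 of the 18 rose and 7 fell in depression-susceptible rats, against the same 38.4% of all probes in either direction. The muscarinic receptor gene Chrm3 fell in anxiety-susceptible (-0.62) and insusceptible rats (-0.71), and the adenosine receptor gene Adora1 in anxiety-susceptible rats (-0.81). Values under quantile normalization are not given for either list. It shifted differences from control in the brightest quartile upward by 0.20 (depression-susceptible), 0.34 (anxiety-susceptible) and 0.35 (insusceptible). Whether the lower calls and medians of the 2 lists depend on the scaling was not tested.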

How the data were processed

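Hippocampal RNA was measured on 16 single-colour arrays. Per the file headers, the deposited spot intensity values came from Feature Extraction 11.0.1.1 (protocol GE1_1100_Jul11, array design 026403), which subtracted background. The deposited series-wide values are on a log2 scale with nearly equal quantiles in each array, judging by the numbers; the sources used here do not name their software, and they served as an alternative. Per the labels' protocols, ribosomal RNA was removed and RNA was amplified with random primers. Control spots and spots with outlier flags were dropped, and repeat spots were averaged by probe. Each array's log2 signal was lowered by its 75th percentile over all non-control spots.

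The basis of that percentile was settled after member counts had been seen under 3 versions: over probe averages first, then over spots without outlier flags, then over all non-control spots. The last is used because it matches the percentile in the scanner headers within 0.0444% on all 16 arrays. Counts under the other 2 are in the closing section.

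Of 24684 probes, 17885 well above background on at least 4 arrays were tested with limma 3.58.1 in R 4.3.3. Python 3.11.15, pandas 2.3.3 and matplotlib 3.10.9 made promoter counts and plots. Symbols came from RefSeq names of assembly GRCr8 (14274 of 15321 messenger RNA probes matched), used for names only. The files hold no gMeanSignal, so normexp used gMedianSignal with an offset of 50. In simulated data for depression-susceptible against control over 17885 probes, 61% of 100 probes changed 1.5-fold and 85% of 100 changed 2-fold were called, beside 0 unchanged ones. The simulated arrays were independent, with the spread seen between arrays of 1 group on 1 slide and no slide effect. The shares called therefore leave out spread between slides and do not give the power or false calls of the real data. The number of arrays limits the precision.

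Members and lists were chosen with earlier results of these data known. Genes named are at most 10 called higher and 10 lower per comparison with control, 5 and 5 between stressed groups, and a fixed list of 38, of which 33 were kept; Kcnq5 and Kcnk9 are not analysed here, and some genes that meet these rules are counted but not reported by name. Replicate numbers do not pair the samples: over 24 same-numbered pairs the correlations of deviations ran from -0.557 to 0.13, with 1 over 0.1.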

Additional observations from a re-analysis of the deposited data

Results flagged for a closer look

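Kcnd3 and Kcnv2 were called in opposite directions against control in different stressed groups. Kcnv2 passed the filter on dim probes only through its depression-susceptible and control arrays. Its lower calls in the other 2 groups are therefore not independent of that filter and are no separate support. Kcnd3 differed by 0.63 in anxiety-susceptible and by -0.44 in insusceptible rats, with every array of the first group above and every array of the other below the controls; the difference between these groups did not pass in limma over 6 samples (adjusted p = 0.118). Kcnv2 differed by 0.59 (log2) from control in the depression-susceptible group and was at least 2.59-fold lower in the anxiety-susceptible group and at least 1.29-fold lower in the insusceptible group, in both of which it was well above background on 0 of 4 arrays; the difference between depression-susceptible and anxiety-susceptible rats passed (adjusted p = 0.016), with its sign turned under normexp (-0.19). The difference between depression-susceptible and insusceptible rats did not (adjusted p = 0.0754).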

How the results depend on the processing

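The counts below are called genes in the order depression-susceptible, anxiety-susceptible and insusceptible against control, then depression-susceptible against insusceptible, anxiety-susceptible against insusceptible, depression-susceptible against anxiety-susceptible, and any difference; the values reported were 8, 20, 19, 0, 0, 1 and 21. In all, 3 versions of the 75th percentile were run on these data. Over probe averages the counts were 9, 22, 18, 0, 0, 1 and 20, with 5, 9 and 9 higher against control; over spots without outlier flags they were 8, 23, 19, 0, 0, 1 and 19, with 4, 6 and 7 higher; over all spots, as reported, 4, 6 and 8 were higher. Of 47 calls reported for named genes, 3 were lost over probe averages and 4 over spots without flags, and 0 turned sign. With 16 arrays as samples the counts were 42, 46, 52, 39, 29, 45 and 62, and with the replicate block over 16 arrays 39, 45, 52, 36, 28, 41 and 61. The replicate numbers do not pair the samples. Both fits take arrays of 1 slide as separate samples, and their shares of all probes are not given. Slide as a block gave 33 over 6 samples and 46 over 16 arrays for depression-susceptible against control. Quantile normalization gave 6, 1 and 12 between stressed groups, and the deposited log2 values 4, 1 and 12. With normexp all 7 counts were 0 over 6 samples, and over 16 arrays 11, 2 and 9 were called between stressed groups. Without a filter on dim probes the counts were 5 and 9 for depression-susceptible and anxiety-susceptible against control, 6 for depression-susceptible against insusceptible, 0 for depression-susceptible against anxiety-susceptible and 8 for any difference. With probes well above background on all 16 arrays, 1 was called for anxiety-susceptible against insusceptible and 8 for depression-susceptible against anxiety-susceptible. Apart from slide as a block and normexp over 6 samples, shares of all probes are not given at the alternative settings. No result about potassium channel genes is read from those counts. Leaving out 1 slide sample left 2 in depression-susceptible, 4 to 10 in anxiety-susceptible and 3 to 7 in insusceptible rats against control, 0 for depression-susceptible against anxiety-susceptible and 0 to 4 for any difference; Kcne2 and Kcnq1 kept their calls in all 3 groups. Leaving out 1 array gave 6 to 9, 16 to 22, 15 to 21, 0 to 0, 0 to 0, 1 to 1 and 14 to 21. With normexp 5 differences turned sign: Kcne5 (-0.0861), Kcnk16 (-0.21) and Kcnv2 (-0.55) in depression-susceptible and Kcnv2 (0.48) in insusceptible rats against control, and Kcnv2 (-0.19) between depression-susceptible and anxiety-susceptible rats. The causes were not tested. Signals near background limit Kcnv2, Kcnmb1, Kcnh5 and Kcnh8.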
